A study of Mus musculus with 8 samples.

Results

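The 10 genes described here, which serve glucose use and the response to low oxygen, were followed in cultured mouse cells after 3 h with C28 (written 028 in the sample names; a code name, with no structure stated) and in cells given the solvent DMSO. The members were chosen by name, with earlier results of these data known. They were Hif1a, Egln3, Slc2a1, Hk2, Pfkfb3, Ldha, Pdk1, Vegfa, Ndrg1 and Bnip3, which are 10 of the 54232 gene rows of the deposited table. All 10 had a row, and all 10 passed the filter on low values. RNA was sequenced from 3 C28 and 3 DMSO libraries of cells with a C57BL/6 background that are labelled as a female germline stem cell culture. No dose and no genetic change is given in the labels, which do not say whether the 3 replicates came from separate cultures. Without a term for the replicate number, the p-values rest on how far these 3 libraries of a group spread. With that term, they rest on how far the differences between same-numbered libraries disagree. Either spread may be technical.

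Cells that lack oxygen stabilise HIF1A, the oxygen-sensitive subunit of the transcription factor HIF-1, because the prolyl hydroxylases of the EGLN family need oxygen to mark it for destruction. Stable HIF1A is imported into the nucleus, pairs with ARNT and binds DNA at a short core, A or G followed by CGTG, near genes that raise glucose uptake, glycolysis and lactate production and restrain the entry of pyruvate into mitochondria. Since this control acts on the protein, the level of Hif1a mRNA is not a measure of HIF-1 activity. Several of the same genes are also regulated by growth factor and nutrient signals.

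Each library had 16930212 to 19197376 reads counted on genes, and the members had at least 531 reads in each library. Of 8 germline markers, 6 had under 10 reads in all libraries together and 3 had 0, among them Pou5f1 and Dppa3, while Ddx4 had 4 reads. The remaining germline markers, Ifitm3 and Prdm1, had 1214 and 25 reads. Of 6 leukocyte and mast cell markers, 5 had at least 10 reads and Fcer1a had 0. Among them, Ptprc and Kit averaged 7798 and 19928 normalized counts with C28 and 7255 and 22046 with DMSO. Summed levels of 5 fibroblast and feeder cell markers were 208 to 522 with C28 and 188 to 612 with DMSO, and those of 5 ovarian somatic markers 8.58 to 19.7 and 9.35 to 19.0. The listed germline markers other than Ifitm3 were thus absent or low. Replicate 1 stood apart from replicates 2 and 3 in both groups, and same-numbered libraries deviated together, so each test below is given both without and with a term for the replicate number (the replicate block). In whole-culture RNA, fewer cells of a type and less RNA per cell cannot be told apart.

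Vegfa, which encodes the angiogenic ligand VEGF-A, differed most between C28 and DMSO among the 10. Vegfa (ENSMUSG00000023951) was at 1479, 1587 and 1775 normalized counts in C28 replicates 1 to 3, against 1044, 1139 and 1208 in DMSO replicates 1 to 3. Every C28 library lay above every DMSO library. The means were 1614 ± 149.98 normalized counts with C28 and 1130.5 ± 82.3 with DMSO (SD, n = 3 each), a 1.43-fold difference with a log2 fold change of 0.51 ± 0.094 (SE) and a 95% confidence interval of 0.29 to 0.73. It did not pass the threshold of 0.05 without the block but rose with it (limma adjusted p 0.166, and 0.000442 with the replicate block). DESeq2 on the recovered reads called it without a block (adjusted p 0.00237), whereas edgeR's quasi-likelihood test did not (adjusted p 0.169). The authors' deposited table, on the same libraries, also called it (log2 fold change 0.44, adjusted p 0.00188). There 186 of the 12154 genes with an adjusted p lay under 0.05. No other member passed in that table, the lowest of their adjusted p-values being 0.365 for Pfkfb3. The 3 same-numbered pairs were close to each other, with C28 higher by 41.6%, 39.3% and 46.9% in replicates 1, 2 and 3. With the block, the limma adjusted p was 0.00187 without pair 1, 0.0542 without pair 2 and 0.0278 without pair 3, so the call was lost without pair 2.

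None of the 10 members passed in limma without the block, where 0.136% of the 19054 genes tested were called (0.121% rose and 0.0157% fell). Of the 10, 2 (Vegfa and Pfkfb3) lay at an unadjusted p under 0.05, as did 1491 of the 19054 genes tested. Without a block edgeR called 0 of the 10 and DESeq2 called 1, against 0.147% and 0.955% of all genes. With the replicate block limma called 3 of the 10, where 4.8% of genes were called: Vegfa and Ndrg1 rose (2.55% of genes rose) and Pfkfb3 fell (2.25% fell). DESeq2 with the block called the same number, 3 of the 10 (3.9% of genes), and edgeR with the block 4 of the 10 (6.99% of genes). The C28 and DMSO libraries did not overlap for 3 of the 10, Vegfa above and Pfkfb3 and Hk2 below, which was the case for 14.7% of genes tested (8.16% with C28 above and 6.49% with C28 below). In 9 of the 10, all except Hif1a, the 3 same-numbered pairs differed in 1 direction, as they did for 39.4% of genes. The median log2 fold change was -0.034 over the members and 0.0042 over all genes tested, with 5 members above 0 and 5 below. Because the members were chosen with earlier results of these data known, these counts beside the shares are no test of the pathway.

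**Figure D1:**
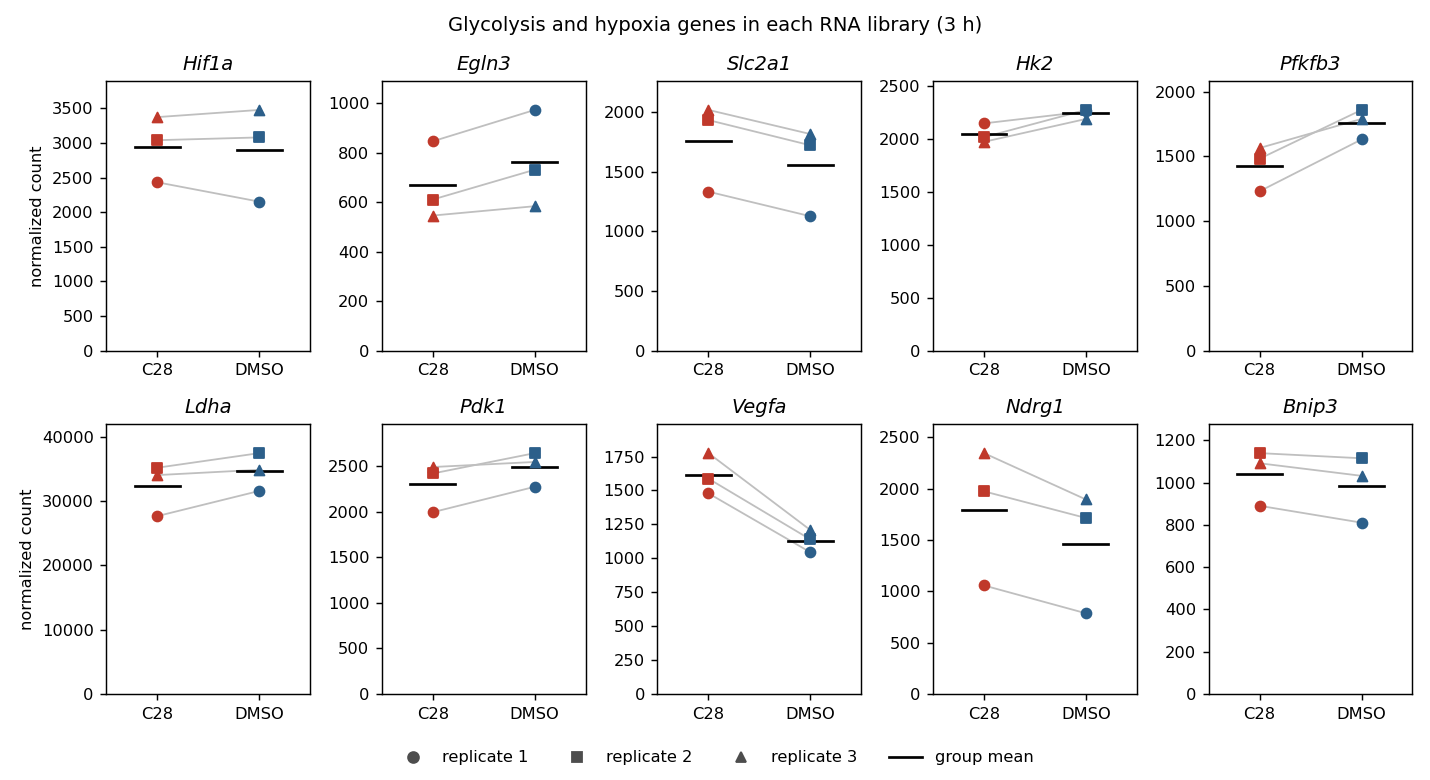
Normalized count (y axis, from 0) of each of the 10 genes in the 3 C28 libraries (red, left) and the 3 DMSO libraries (blue, right); marker shapes give the replicate number, grey lines join same-numbered libraries and black bars are group means. Vegfa libraries with C28 sit between 1479 and 1775, all above those with DMSO, and replicate 1 is the lowest in both groups for Hif1a, Slc2a1, Ldha, Pdk1, Pfkfb3, Ndrg1, Bnip3 and Vegfa.

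**Figure D2:**
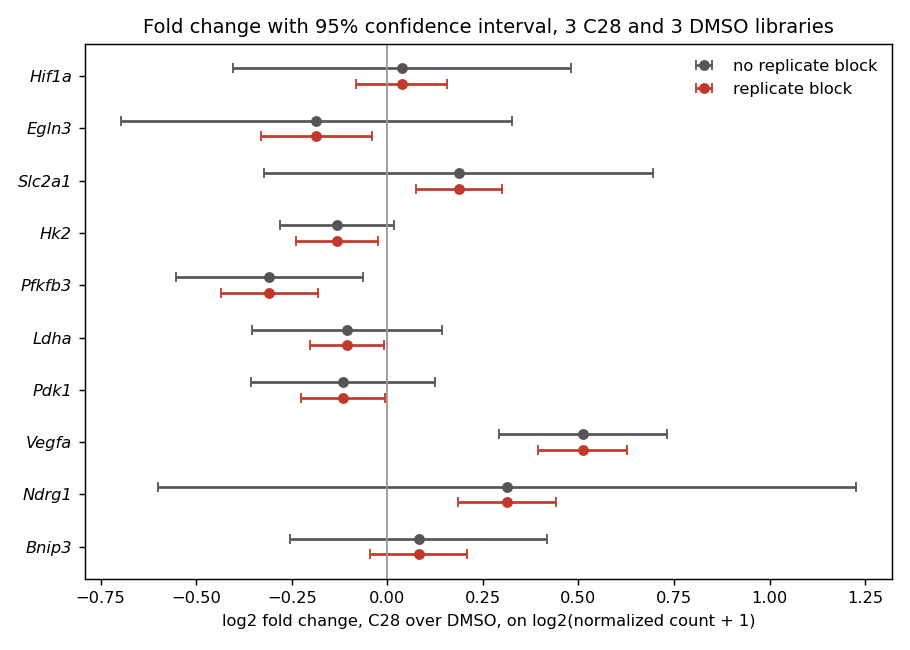
Log2 fold change of C28 over DMSO (x axis) for each gene with its 95% confidence interval, from limma without the replicate block (grey) and with it (red). The estimate is the same in both fits; the interval of Ndrg1 runs from -0.60 to 1.23 without the block and from 0.19 to 0.44 with it.

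The oxygen-sensing members were the transcription factor subunit Hif1a and Egln3, a prolyl hydroxylase (PHD3) that marks HIF1A and is itself a HIF target. Hif1a (ENSMUSG00000021109) was at 2432, 3040.02 and 3373 normalized counts in C28 replicates 1 to 3, against 2153, 3080.2 and 3477 in DMSO replicates 1 to 3. The groups overlapped widely, with C28 higher in pair 1 and lower in pairs 2 and 3. Its log2 fold change was 0.038 ± 0.19 (SE), with a 95% confidence interval of -0.40 to 0.48 without the block and -0.082 to 0.16 with it (limma adjusted p 0.992, and 0.782 with the replicate block). Egln3 (ENSMUSG00000035105) was at 846, 611 and 546 normalized counts in C28 replicates 1 to 3, against 972, 731 and 584 in DMSO replicates 1 to 3. C28 was lower in 3 of 3 pairs although the groups overlapped, the pairs differing by -13.0%, -16.4% and -6.47%. The log2 fold change of -0.19 ± 0.22 (SE) did not pass (limma adjusted p 0.930, and 0.156 with the replicate block). With the block its 95% confidence interval, not adjusted for the number of genes, was -0.33 to -0.041.

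Glucose enters through transporters, is trapped by hexokinase and is committed to glycolysis by phosphofructokinase, whose activator is made by PFKFB3. Slc2a1 (ENSMUSG00000028645), the transporter GLUT1, was at 1333, 1934 and 2019 normalized counts in C28 replicates 1 to 3, against 1127, 1722 and 1817 in DMSO replicates 1 to 3. C28 was higher in 3 of 3 pairs, by 11.1% to 18.3%, within groups that overlapped. The log2 fold change of 0.19 ± 0.22 (SE) did not pass (limma adjusted p 0.928, and 0.0698 with the replicate block). With the block its 95% confidence interval, not adjusted for the number of genes, was 0.074 to 0.30. In edgeR with the block, an alternative chosen after seeing the data, Slc2a1 passed (adjusted p 0.0431). Hk2 (ENSMUSG00000000628), the inducible hexokinase, was at 2149, 2018 and 1975 normalized counts in C28 replicates 1 to 3, against 2261, 2276 and 2191 in DMSO replicates 1 to 3. The C28 libraries all lay just below the DMSO libraries, with means of 2047 ± 90.8 normalized counts with C28 and 2243 ± 45.7 with DMSO (SD, n = 3 each). The log2 fold change of -0.13 ± 0.064 (SE) did not pass (limma adjusted p 0.711, and 0.175 with the replicate block). Its unadjusted 95% confidence interval with the block was -0.24 to -0.024.

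Pfkfb3 (ENSMUSG00000026773), the enzyme that makes fructose-2,6-bisphosphate, was at 1231, 1482 and 1564 normalized counts in C28 replicates 1 to 3, against 1630.4, 1858 and 1789 in DMSO replicates 1 to 3. Every C28 library lay below every DMSO library, the highest C28 value being close to the lowest DMSO value. The means were 1426 ± 174 normalized counts with C28 and 1759 ± 117 with DMSO (SD, n = 3 each), a ratio of 0.808 and a log2 fold change of -0.31 ± 0.11 (SE). Pfkfb3 fell with the block only (limma adjusted p 0.516, and 0.0112 with the replicate block). With the block it also passed without pair 1 (limma adjusted p 0.0321), but not without pair 2 (0.248) or pair 3 (0.0747).

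Ldha and Pdk1 act on pyruvate, the end product of glycolysis. Ldha (ENSMUSG00000063229), the lactate dehydrogenase subunit that favours lactate formation, was at 27681, 35216 and 34070.4 normalized counts in C28 replicates 1 to 3, against 31602, 37491 and 34903 in DMSO replicates 1 to 3. Pdk1 (ENSMUSG00000006494), the kinase that inactivates pyruvate dehydrogenase, was at 1996, 2422 and 2493 normalized counts in C28 replicates 1 to 3, against 2275, 2645 and 2548 in DMSO replicates 1 to 3. Both were lower with C28 in 3 of 3 pairs within groups that overlapped. The C28 values differed from the DMSO values by -12.4%, -6.07% and -2.39% for Ldha and by -12.3%, -8.44% and -2.19% for Pdk1 in replicates 1, 2 and 3, with log2 fold changes of -0.11 ± 0.11 (SE) and -0.12 ± 0.10 (SE). Neither passed (limma adjusted p 0.906, and 0.231 with the replicate block for Ldha; 0.883 and 0.254 for Pdk1). Their 95% confidence intervals with the block, not adjusted for the number of genes, were -0.20 to -0.0093 for Ldha and -0.23 to -0.0048 for Pdk1. The pseudogene row Ldha-ps2 averaged 128 normalized counts with C28 and 138 with DMSO, against at least 27681 in each library for Ldha; reads of the 2 may have been split in counting.

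Ndrg1 and Bnip3 are further HIF targets. Ndrg1 (ENSMUSG00000005125), a cytoplasmic protein induced by hypoxia and differentiation, was at 1056, 1973 and 2346 normalized counts in C28 replicates 1 to 3, against 785, 1714 and 1894 in DMSO replicates 1 to 3. The groups overlapped, with replicate 1 low in both, and C28 was higher in each pair, by 34.5%, 15.2% and 23.8%. The log2 fold change of 0.31 ± 0.39 (SE) did not pass without the block, whereas Ndrg1 rose with it, where the SE was 0.058 (limma adjusted p 0.936, and 0.0113 with the replicate block). Without the block the change was -0.086 when DMSO replicate 1 was left out and 0.65 when C28 replicate 1 was. With the block Ndrg1 passed without pair 1 (limma adjusted p 0.0247) but not without pair 2 (0.151) or pair 3 (0.160). Bnip3 (ENSMUSG00000078566), a mitochondrial outer membrane protein that recruits the autophagy machinery to mitochondria, was at 890.3, 1139.6 and 1092 normalized counts in C28 replicates 1 to 3, against 811, 1115 and 1032 in DMSO replicates 1 to 3. Its C28 values lay inside the range of the DMSO values except for replicate 2, and C28 was higher in 3 of 3 pairs, by 9.84%, 2.19% and 5.76%. The log2 fold change of 0.082 ± 0.14 (SE) did not pass (limma adjusted p 0.965, and 0.501 with the replicate block), and the 95% confidence interval of that change with the block was -0.044 to 0.21.

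Most members varied with the replicate number. In the fit with group and replicate number, 7 of the 10 members differed by replicate number at an adjusted p under 0.05 (limma F test), against 16.3% of genes tested. The adjusted p-values in this paragraph are of that F test over the 3 replicate numbers. Replicate 1 against the others was not tested by itself, and its ratios are descriptive. Ndrg1 averaged 921, 1844 and 2119.8 normalized counts over both libraries of replicates 1, 2 and 3, and replicate 1 was 0.463-fold relative to the others (limma adjusted p 3.20e-06). Slc2a1, Hif1a, Bnip3, Ldha and Pdk1 were also lower in replicate 1, at 0.656, 0.707, 0.777, 0.836 and 0.844 times replicates 2 and 3 (limma adjusted p from 9.86e-05 for Slc2a1 to 0.0248 for Pdk1). The count was 4 of the 10 without C28 replicate 2, where 1046 of the 19054 genes were called, and 4 without DMSO replicate 2, where 1186 were. It was 9 of the 10 with a minimum value of 10 in 3 libraries, where 3722 of only 13322 genes tested were called. It was 9 with upper-quartile scaling (3151 of the 19054 genes) and 8 in edgeR (3853 of the 19054). Egln3 went the other way, at 1.48 times the others (limma adjusted p 0.000597).

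Vegfa, Pfkfb3 and Hk2 did not pass that test (limma adjusted p 0.0701, 0.0552 and 0.602), although with a minimum value of 10 or upper-quartile scaling only 1 of the 10 members did not pass. With replicate 1 left out of both groups, 0 of the 10 members differed between replicates 2 and 3 (limma with Benjamini-Hochberg adjustment, where 77 of all genes did). Marker lists of other cells were set beside the replicate number, with no test. The summed level of 5 fibroblast and feeder cell markers was 188 to 208 normalized counts in replicate 1 and 348 to 612 in replicates 2 and 3, and all 5 had at least 10 reads. The summed level of the 6 leukocyte and mast cell markers was 60825 to 65541 in replicate 1 and 57138 to 61351 in the others, ranges that overlapped, with Fcer1a at 0 reads. The 5 ovarian somatic markers summed to 9.35 to 19.7 in replicate 1 and 8.58 to 19.5 in the others, also overlapping. The germline list, mostly Ifitm3 reads, summed to 80.4 to 91.3 in replicate 1 and 219.98 to 289 in the others. The part of these cells in the replicate differences was not tested.

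**Figure D3:**
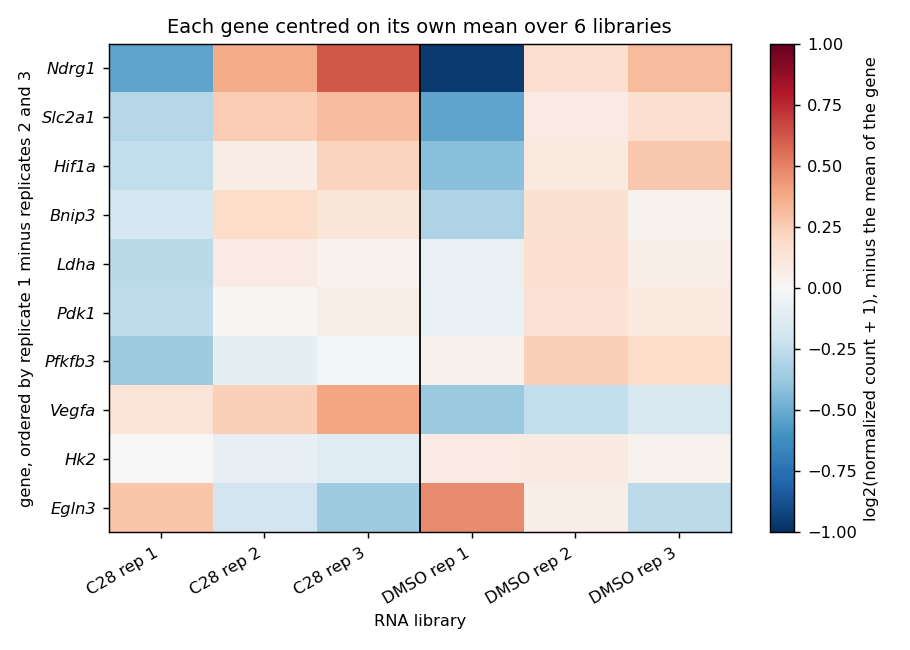
Log2(normalized count + 1) of each gene (rows) in each RNA library (columns, C28 left of the line and DMSO right), minus the gene's own mean over the 6 libraries. The first column of each group, replicate 1, is low for Ndrg1, Slc2a1, Hif1a and Bnip3 and high for Egln3, while Vegfa is high in all 3 C28 columns and low in all 3 DMSO columns.

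For the 3 members that varied most over the 6 libraries, the nearest profiles among 10571 other genes averaging at least 50 normalized counts were found by the root mean square difference of centred log2 values. Ndrg1 was nearest to the leukocyte receptor Lilr4b (difference 0.0768), then Camk2b (0.102) and Btg1 (0.107), where the median gene differed from it by 0.569. Slc2a1 was nearest to Nabp1, a protein that binds single-stranded DNA (difference 0.0425), then Fndc3a (0.0545) and AU022793 (0.0568), where the median gene differed from it by 0.330. Egln3 was nearest to Fundc2, a mitochondrial outer membrane protein (difference 0.0690), then Tfeb (0.0731) and Acsf3 (0.0769), where the median gene differed from it by 0.322. These likenesses describe 6 libraries, in which replicate 1 stood apart, and share those libraries.

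Promoter sequence was inspected for the core bound by HIF-1, because the members are grouped here as its targets. The sequences are the 250 bases before an annotated start, 5′ to 3′ on the strand of the gene, from RefSeq on build GRCm38.p6, and the first listed start was used; 9 of the 10 members matched, and Ndrg1 did not. Shown are Vegfa and Pfkfb3, which passed with the block, Slc2a1, and Ldha, which holds the most matches. Capitals mark ACGTG on either strand, and where the palindrome CACGTG occurs both strands match and overlap, so that 6 letters are in capitals.
Vegfa, chr17:46032378-46032627, - strand: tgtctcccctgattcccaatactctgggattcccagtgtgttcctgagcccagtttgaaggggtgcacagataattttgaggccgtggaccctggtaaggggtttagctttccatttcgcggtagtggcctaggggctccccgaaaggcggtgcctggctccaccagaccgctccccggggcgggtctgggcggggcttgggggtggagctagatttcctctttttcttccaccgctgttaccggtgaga
Pfkfb3, chr2:11553930-11554179, - strand: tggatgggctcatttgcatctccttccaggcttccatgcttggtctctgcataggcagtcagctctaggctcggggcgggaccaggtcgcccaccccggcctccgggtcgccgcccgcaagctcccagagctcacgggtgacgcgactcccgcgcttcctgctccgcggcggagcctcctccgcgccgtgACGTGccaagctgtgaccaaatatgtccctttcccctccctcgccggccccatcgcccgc
Slc2a1, chr4:119108495-119108744, + strand: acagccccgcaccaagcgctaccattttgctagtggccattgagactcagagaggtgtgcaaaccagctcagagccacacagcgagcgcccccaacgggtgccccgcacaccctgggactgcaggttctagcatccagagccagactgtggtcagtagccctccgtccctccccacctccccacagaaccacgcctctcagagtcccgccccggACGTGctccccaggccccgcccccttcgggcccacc
Ldha, chr7:46845554-46845803, + strand: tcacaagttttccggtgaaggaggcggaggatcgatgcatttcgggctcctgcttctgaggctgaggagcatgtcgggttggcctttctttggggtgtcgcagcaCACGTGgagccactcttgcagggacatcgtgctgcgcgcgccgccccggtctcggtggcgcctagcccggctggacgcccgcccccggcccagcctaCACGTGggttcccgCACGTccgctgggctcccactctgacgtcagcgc

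ACGTG, searched on both strands, occurred in 7 of the 9 member promoters, against 16.6% of 27025 promoter windows of the same length. The members are grouped here as HIF targets, and the windows were not matched for base composition or RNA level. The shares in this paragraph are therefore descriptive and no test. The Vegfa window held none, and the Pfkfb3 and Slc2a1 windows held 1 each, 60 and 36 bases before the start. The Ldha window held 5 matches at 3 places, since 2 of these were CACGTG, a sequence that is also the core bound by basic helix-loop-helix factors such as MYC. CACGTG occurred in 3 of the 9 (Hif1a, Ldha and Bnip3) and in 6.05% of all windows, and GCGTG in 3 of the 9 (Slc2a1, Pdk1 and Bnip3) and in 28.2%. TGACNNNGC, the core bound by NRF2 with small MAF proteins, occurred in 0 of the 9 and in 10.1% of all windows. A match is a string of letters and not a measured binding site. Sequence farther upstream, at other starts or inside the genes was not searched. A window without a match, like that of Vegfa, therefore does not show that the gene lacks a site.

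Other genes of the pathway were taken from a list of 81 in 6 groups, of which 76 passed the filter on low values and 5 did not. Without the block 0 of the 76 were called by limma, with 5 at an unadjusted p under 0.05 (1491 of the 19054 genes tested), 0 by edgeR and 0 by DESeq2. With the block 3 rose, 3 fell and 70 did not pass, where 2.55% of all genes tested rose and 2.25% fell. The median log2 fold change was 0.012, with 40 above 0 and 36 below, beside 0.0042 over all genes tested.

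Of the 16 glycolytic enzymes tested 0 were called with the block, a count near the 4.8% called over all genes. Slc2a6, a glucose transporter of intracellular membranes, fell to 587 ± 64.4 normalized counts with C28, against 733 ± 34.7 with DMSO (SD, n = 3 each), with a log2 fold change of -0.32 ± 0.10 (SE) (limma adjusted p 0.486, and 0.0392 with the replicate block). Slc16a1, the lactate and pyruvate carrier MCT1, fell to 4089 ± 536 normalized counts with C28, against 4842 ± 369.7 with DMSO (SD, n = 3 each), with a limma adjusted p of 0.645, and of 0.0128 with the replicate block. Tfrc, the transferrin receptor, the most abundant of the other HIF targets, fell to 14125 ± 615 normalized counts with C28, against 16579 ± 2273 with DMSO (SD, n = 3 each), with a limma adjusted p of 0.654, and of 0.0386 with the replicate block. Among those that rose, Ero1l, the oxidase of protein folding in the endoplasmic reticulum, was at 8997 ± 713 normalized counts with C28 and 7547 ± 357 with DMSO (SD, n = 3 each), with a limma adjusted p of 0.454, and of 0.00911 with the replicate block. Gys1, the glycogen synthase of muscle and most other tissues, was at 897 ± 157 normalized counts with C28 and 722 ± 105 with DMSO (SD, n = 3 each), with a limma adjusted p of 0.727, and of 0.0168 with the replicate block. Ddit4 (REDD1), an inhibitor of mTORC1, was at 705 ± 188 normalized counts with C28 and 531 ± 285 with DMSO (SD, n = 3 each), with a limma adjusted p of 0.827, and of 0.0370 with the replicate block; it is, like Tfrc, also controlled by pathways other than HIF. With the block, none of these 6 passed without pair 2 or without pair 3, while 15 of the 76 passed without pair 1.

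Slc16a1 and Tfrc were the most abundant genes of their groups, and those of the other 4 groups did not pass. Pkm, the pyruvate kinase, was at 35376 ± 3515 normalized counts with C28 and 35818 ± 3403 with DMSO (SD, n = 3 each), and the 95% confidence interval of its log2 fold change with the block was -0.11 to 0.069. Slc2a3, the transporter GLUT3, was at 9881 ± 1044 normalized counts with C28 and 10628 ± 962 with DMSO (SD, n = 3 each), with a limma adjusted p of 0.887, and of 0.290 with the replicate block. Tigar, which degrades fructose-2,6-bisphosphate, was at 402 ± 89.1 normalized counts with C28 and 440.4 ± 113 with DMSO (SD, n = 3 each), with a limma adjusted p of 0.970, and of 0.450 with the replicate block. Eloc (named Tceb1 in the table), a subunit of the ubiquitin ligase that degrades HIF1A, was at 2367 ± 128 normalized counts with C28 and 2351 ± 79.7 with DMSO (SD, n = 3 each), with a limma adjusted p of 0.995, and of 0.963 with the replicate block. By replicate number 28 of the 76 differed, 15 lower and 13 higher in replicate 1, where 16.3% of the 19054 genes did (1602 lower and 1498 higher). Among the 28 were 8 of the 16 glycolytic enzymes (7 lower and 1 higher) and 1 of the 12 genes of HIF subunits and oxygen sensing, in the limma F test.

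**Figure D4:**
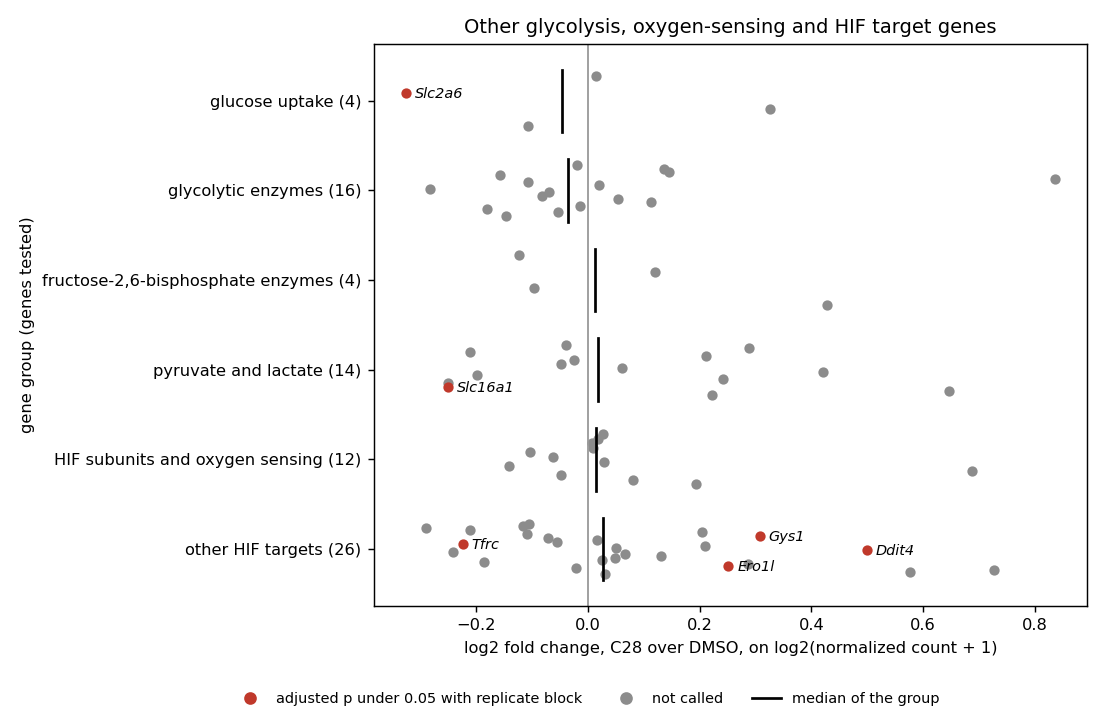
Log2 fold change of C28 over DMSO (x axis) for the 76 other genes tested, in 6 groups (rows); red points passed with the replicate block, grey points did not, and black bars are group medians. The group medians lie between -0.046 and 0.028.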

How the data were processed

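RNA of 3 C28 and 3 DMSO libraries was analysed; sample titles gave the groups and replicate numbers. The members and gene lists were chosen with earlier results of these data known. The submitters' processing notes name mm9, Bowtie2 and Cufflinks 2.2.1. Neither a counting tool nor a strand setting is stated in the sources used here; Hif1a, Slc2a1 and Pfkfb3 may share reads with overlapping RNAs, each averaging under 10. The authors deposited values on a signal scale, gene counts divided by 1 size factor per library: 100% of values times that factor lie within 0.01 of a whole read number. The authors also deposited a mean, a log2 fold change and an adjusted p-value. The H3K27ac peak lists were not used here, since no annotation of their build was at hand.

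Where rows shared a symbol, that with the highest mean stood for it. Genes at 1 or more in at least 3 of 6 libraries were tested on log2(value + 1) in limma (version 3.58.1, R version 4.3.3; prior variance with a trend on mean level) with Benjamini-Hochberg adjustment over 19054 genes at 0.05; a fold change is on that scale, which understates changes of low genes. The plan gave limma to normalized values and edgeR to raw counts. On reads recovered from the values, edgeR 4.0.16 and DESeq2 1.42.0 were run as alternatives. Of same-numbered libraries, deviations from group means correlated at 0.84, 0.68 and 0.71 for replicates 1, 2 and 3 over 10572 genes averaging at least 50, each above its correlation with other numbers. C28 replicate 3 correlated with DMSO replicate 2 at 0.54, and C28 replicate 2 with DMSO replicate 3 at 0.41. Deviations within a group cancel, so replicate 1 standing apart in both groups by itself makes replicates 2 and 3 deviate alike. Pairing therefore comes from the data, since no label states it, and rests largely on replicate 1. Libraries of 1 group differed by more than counting noise (chi-square per gene 4.84 to 26.2). C28 over DMSO was also simulated over 18307 genes, with the same replicate shifts in both groups and changes only in genes averaging at least 50. Of genes changed by 0.5 on the log2 scale, limma called 12% without the block and 89% with it. False calls were 0 without the block and 6 with it. Since shared replicate shifts were built in, the simulation cannot show whether the block suits these libraries. Named were all members, list genes called in either fit, and the most abundant gene of each group.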

Additional observations from a re-analysis of the deposited data

How the results depend on the processing

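Over all genes, 26 were called without the replicate block, 914 with it, 182 by DESeq2, 1332 by edgeR with the block, 743 by DESeq2 with the block and 91 with replicate 1 left out of both groups; leaving out 1 library gave 0 (without C28 replicate 2) to 23, and leaving out pair 1, 2 or 3 with the block 853, 50 or 207. Members called were 0 without the block, 3 with it, 1 by DESeq2 (Vegfa), 4 by edgeR with the block and 3 by DESeq2 with the block, and 0 to 3 with 1 library or pair left out (3 without pair 1, 0 without pair 2 and 1 without pair 3, all with the block). Other listed genes called were 0 without the block, 6 with it, 12 by edgeR with the block, 7 by DESeq2 with the block and 1 with replicate 1 left out of both groups, and 0 to 15 with 1 library or pair left out. Both fits with the block by edgeR and DESeq2 were chosen after seeing the data. By replicate number 3100 genes and 7 members were called; these became 77 and 0 with replicate 1 left out of both groups, and 1046 to 3389 genes and 4 to 8 members with 1 library left out.

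Vegfa stayed above 0 and Pfkfb3, Hk2 and Pdk1 below 0 under all 22 alternatives each. With 1 library left out, log2 fold changes ran from -0.16 to 0.18 for Hif1a, -0.37 to 0.0058 for Egln3, -0.029 to 0.38 for Slc2a1, -0.17 to 0.0024 for Ldha, -0.086 to 0.65 for Ndrg1 and -0.052 to 0.19 for Bnip3; the direction turned without DMSO replicate 1 for all of these except Ldha, without C28 replicate 1 for Ldha, and without C28 replicate 3 for Hif1a (-0.066). Leaving out 1 library made the 2 groups unequal in replicate number. With the block and a whole pair left out, Egln3 and Ldha stayed below 0 whichever pair it was. Slc2a1, Ndrg1 and Bnip3 stayed above 0 in the same fits, Ndrg1 at 0.26, 0.37 and 0.32 without pairs 1, 2 and 3. Hif1a was at -0.031 with replicate 1 left out of both groups, with or without the block. The cause of the turns was not tested. With 1 library left out, none of the members passed. Without the block, changing the low-value filter, the pseudocount, the scaling or the treatment of repeated symbols changed no member's call or direction for C28 over DMSO; these were not run with the block. Members called by replicate number became 9 with a minimum value of 10 in 3 libraries or upper-quartile scaling and 8 in edgeR. Peak alternatives were not run because the peaks were not used.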
